A study of Mus musculus with 24 samples.

Results

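The genes described here are the enzymes of cholesterol synthesis, the proteins that control them through the transcription factor SREBP2, and a carrier of cholesterol inside the cell, measured in mouse brown adipose tissue. They were chosen by gene symbol and number 26 of the 23017 genes in the table. In pathway order, 21 are enzymes, from Aacs and Acat2 to Dhcr7, 4 are regulators (Srebf2, Scap, Insig1 and Insig2), and the last is the carrier gene Stard4. All 26 passed the filter on low values, which left out the 25% of genes with the lowest mean. Not every step of the pathway is covered.

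PolyA RNA was sequenced from brown adipose tissue of C57BL/6J mice, in 24 samples that form 4 groups of 6. TZP mice received tirzepatide, which activates the receptors for the gut hormones GIP and GLP-1, and LAGIPRA mice received a GIP receptor agonist of long action. PairFedVehicle mice received vehicle and a restricted amount of food, and Vehicle mice received vehicle. Pair feeding holds intake to the amount that another group eats, so that a drug can be compared with reduced feeding alone. Per the series title all groups were obese and insulin resistant; the sources used here do not give how the mice were made so, their age, sex and diet, the doses, the time of treatment or the group that set the ration.

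Animal cells make cholesterol from acetyl-CoA by way of mevalonate, farnesyl diphosphate, squalene and lanosterol. When the endoplasmic reticulum holds enough cholesterol, the Insig proteins keep SREBP2 and its escort Scap there; when cholesterol runs low, SREBP2 travels to the Golgi, is cut, and switches on most genes of the pathway, Insig1 among them. Farnesyl diphosphate also feeds the synthesis of ubiquinone, a carrier of the respiratory chain, which is abundant in brown fat. Brown fat burns lipid to make heat, and its mitochondria carry the uncoupling protein Ucp1.

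Values were the log2 values deposited by the authors, an inferred scale, and differences are given as log2 differences with the standard error (SE) of the fit. Adjusted p is limma's two-sided p with Benjamini-Hochberg adjustment over all 17263 genes tested, and a gene is said to rise or fall where it is under 0.05. Nothing in the labels says that the samples came from separate animals, so p-values measure the spread between these samples. Bulk tissue values cannot tell fewer cells of a type from less RNA per cell. Sample codes run consecutively within each group, and an effect of processing order, if there was one, cannot be told apart from treatment.

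The 8 brown adipocyte markers averaged 8.95 to 10.21 in TZP, 9.45 to 9.84 in LAGIPRA, 9.17 to 9.79 in PairFedVehicle and 9.03 to 9.69 in Vehicle libraries, with Ucp1 at 14.70 or more in every library, which fits the labelled tissue. Skeletal muscle markers averaged only 0.883 in TZP 3, 0.622 in PairFedVehicle 5 and 0.905 in Vehicle 1, against 4.47 or more in the other libraries. The dependence of values on transcript length also differed. Its slope was -0.127 to -0.0598 log2 per doubling of length in TZP 3 to 6, against -0.00873 to 0.0531 in all other libraries, TZP 1 and 2 included. Total reads are unknown. As a stand-in for depth, the commonest low value, taken as the level of 1 read, lay between 0.853 (Vehicle 1) and 2.20 (LAGIPRA 4) on the linear scale. Its median was 1.59 in TZP, 1.41 in LAGIPRA, 1.25 in PairFedVehicle and 1.01 in Vehicle. Depth therefore cannot be fully told apart from treatment.

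Much of the pathway was lower in pair-fed mice than in Vehicle mice, and both drug groups stood above pair feeding. In PairFedVehicle against Vehicle, 14 of the 26 genes fell and 0 rose, while 8.61% of all genes tested passed in this comparison (3.66% lower). The 26 genes had a median difference of -0.52, against 0.02 over all genes tested. In 13 of the 26 all 6 PairFedVehicle libraries lay below all 6 Vehicle libraries, which held for 2.35% of all genes. In 9 of the 26 (Aacs, Pmvk, Idi1, Fdps, Lss, Nsdhl, Sc5d, Dhcr7 and Insig1) they lay below all 18 other libraries, against 0.655% of all genes.

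In TZP against PairFedVehicle 16 of the 26 rose and 1, Lbr, fell (median 0.61, against -0.00 over all genes), where 16.4% of all genes passed (8.39% higher). In LAGIPRA against PairFedVehicle 15 rose and 0 fell (median 0.60, against -0.01 over all genes), where 11.9% of all genes passed (7.3% higher). Groups did not overlap for 11 genes higher in TZP (3.17% of all genes) and for 12 higher in LAGIPRA (3.7% of all genes). These comparisons share the PairFedVehicle libraries with each other and with the comparison above, so they are not independent of it.

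**Figure D1:**
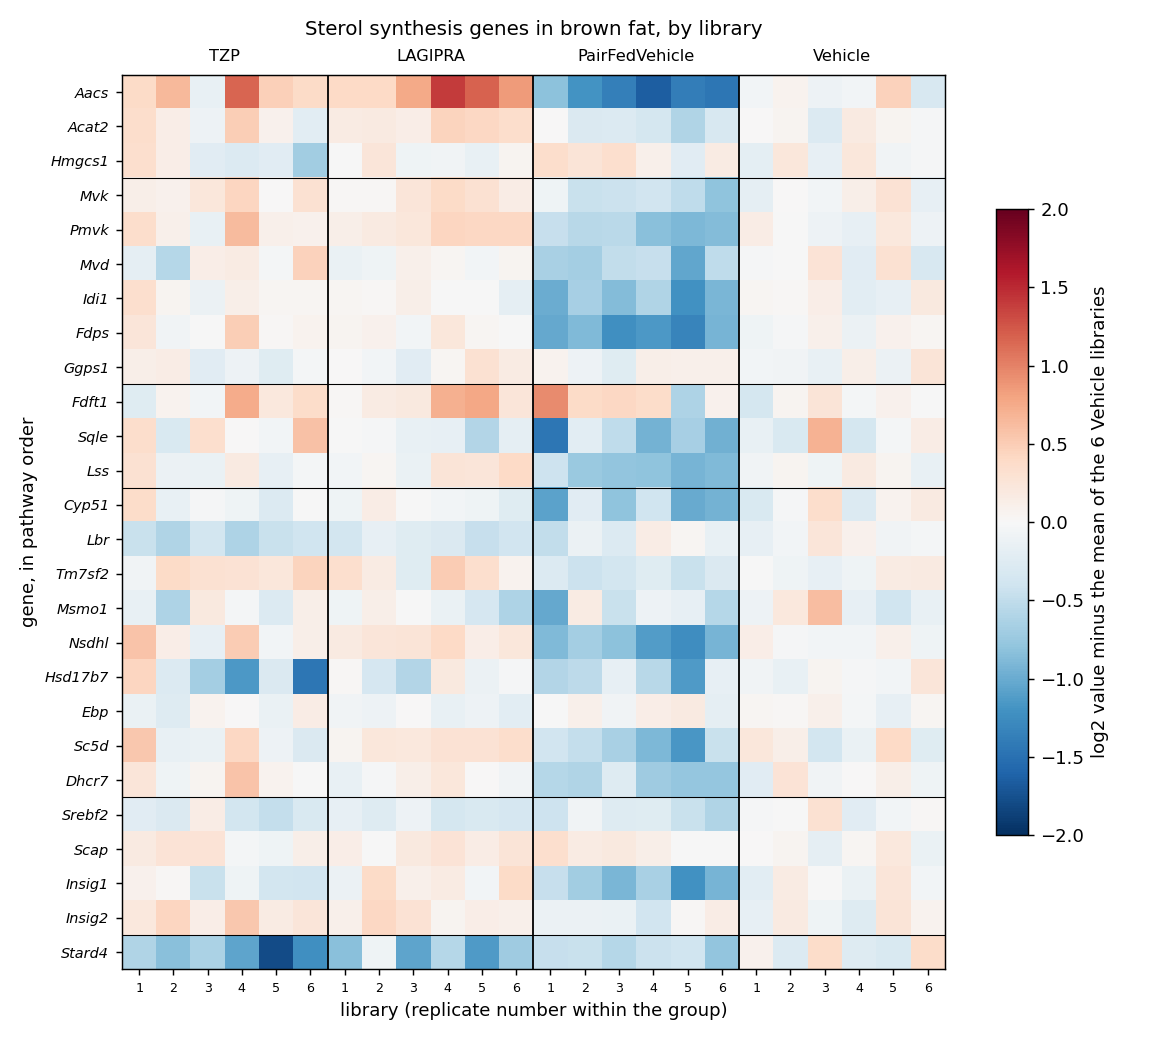
Log2 value minus the mean of the 6 Vehicle libraries for the 26 genes (top to bottom, in pathway order; lines part the steps) in the 24 libraries (left to right, by group). Blue is lower and red higher; the PairFedVehicle columns are blue for most enzymes and Insig1, while Hmgcs1, Ggps1, Fdft1, Ebp and Scap are not.

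Against Vehicle few of these genes passed in the drug groups. In LAGIPRA their share was close to that of all genes tested, so its count is not read as a trait of these genes. In TZP 2 fell, Lbr and Stard4, and 0 rose (median 0.06, against 0.04 over all genes), where 22% of all genes passed (10.3% lower); the count was 4 without Vehicle 5, TZP 1 or TZP 3. In LAGIPRA Aacs rose and Lbr and Stard4 fell (median 0.05, against 0.03 over all genes), where 13.7% of all genes passed (8.7% higher, 5.03% lower); the count was 1 without Vehicle 3, Vehicle 6 or LAGIPRA 5. TZP against LAGIPRA gave 0 calls of 26 with limma, under every alternative setting too, where 0.4% of all genes passed; 1 gene, Insig1, had an unadjusted p under 0.05.

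**Figure D2:**
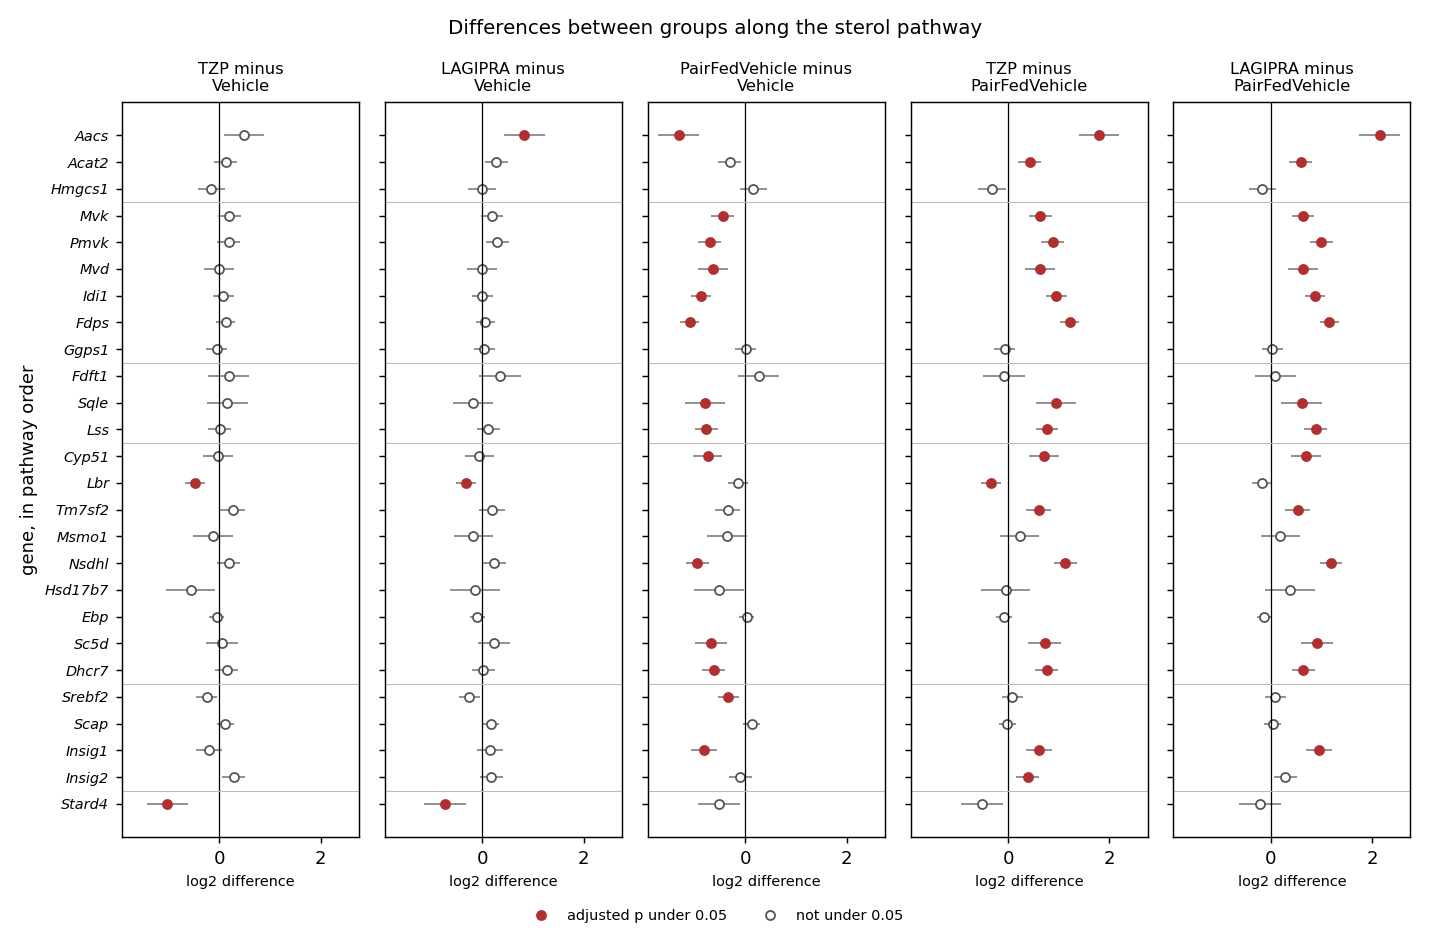
Log2 differences of the 26 genes in 5 comparisons, with 95% intervals; filled points have an adjusted p under 0.05 (limma, Benjamini-Hochberg over 17263 genes). Filled points number 2 and 3 in the comparisons of TZP and LAGIPRA with Vehicle, 14 in that of PairFedVehicle with Vehicle, and 17 and 15 in those of TZP and LAGIPRA with PairFedVehicle.

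The lower values were present in each pair-fed library. Averaged over the 26 genes, the deviation from the mean of all libraries was -0.03 to 0.24 in TZP, 0.09 to 0.27 in LAGIPRA, -0.55 to -0.24 in PairFedVehicle and 0.04 to 0.17 in Vehicle. The PairFedVehicle libraries lay apart from the 18 others, and TZP and Vehicle overlapped. Between 15 and 21 of the 26 genes lay below the Vehicle range in each PairFedVehicle library, against 3 to 8 in each TZP library and 2 to 5 in each LAGIPRA library. How many of all genes lay below or above that range in a library was not counted. The TZP and LAGIPRA counts are therefore not read as a trait of these genes. TZP 1 and TZP 4 were the 2 TZP libraries with most genes above the Vehicle range, 10 and 12. Their length slopes were 0.0116 and -0.0721, and the part of length slope or depth in these counts was not tested.

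**Figure D3:**
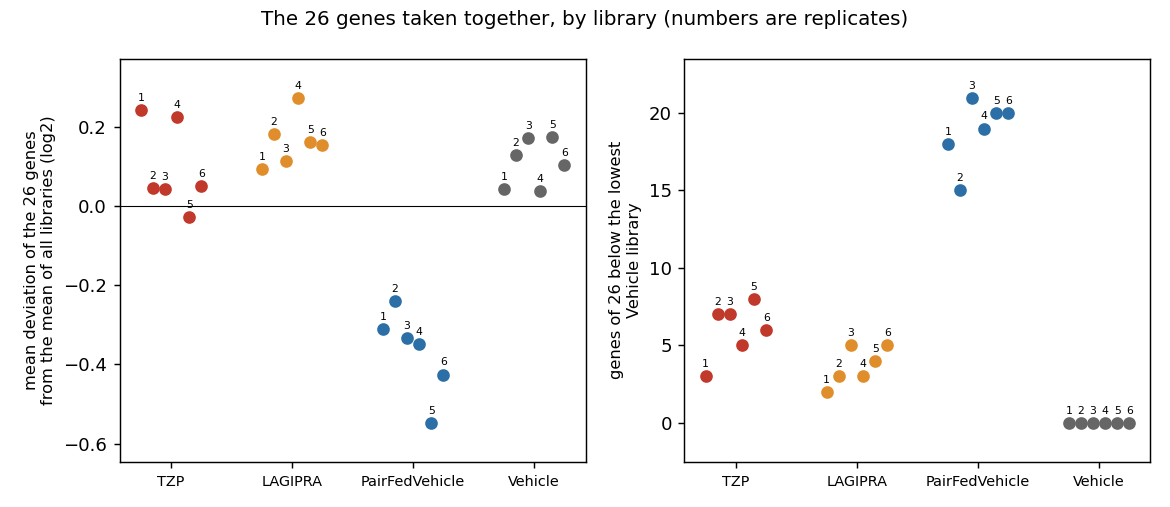
Each point is a library, numbered by replicate. Left, mean deviation of the 26 genes from the mean of all 24 libraries (log2); right, number of the 26 genes below the lowest Vehicle library. PairFedVehicle libraries sit lowest on the left, at -0.55 to -0.24, and highest on the right, at 15 to 21 genes. The same count over all genes was not made.

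Promoter sequences are shown for 6 genes, 3 because they hold the core of the sterol regulatory element, the site that SREBP2 binds, and 3 because they had the smallest adjusted p in PairFedVehicle against Vehicle among the enzyme genes whose RefSeq promoter window ends at the outermost RefSeq start. RefSeq promoter windows (GRCm38.p6) were found for 22 of the 26 genes, and not for Fdps, Fdft1, Sqle and Stard4. The core was searched as TCACNCCA and the NF-Y box, whose factor works beside SREBP2 at many sterol promoters, as CCAAT, on both strands of the 250 bases before the start. The words can share the letters CCA; in the sequences printed they did not overlap. The core was found in 3 of the 22 (4.20% of the promoters of 27025 genes) and CCAAT in 19 of the 22 (37.5% of the same promoters). Capitals mark the matches; ATTGG is CCAAT on the other strand. The first 3 are Hmgcs1 at chr13:119690101-119690350 (+ strand), Msmo1 at chr8:64733579-64733828 (- strand) and Srebf2 at chr15:82147019-82147268 (+ strand). The others are Idi1 at chr13:8885356-8885605 (+ strand), Nsdhl at chrX:72918271-72918520 (+ strand) and Aacs at chr5:125475623-125475872 (+ strand).
Hmgcs1: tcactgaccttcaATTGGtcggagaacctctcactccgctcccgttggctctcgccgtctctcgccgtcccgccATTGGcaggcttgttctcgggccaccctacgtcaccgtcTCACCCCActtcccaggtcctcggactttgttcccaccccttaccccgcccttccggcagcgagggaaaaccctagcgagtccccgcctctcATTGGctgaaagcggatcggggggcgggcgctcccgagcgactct
Msmo1: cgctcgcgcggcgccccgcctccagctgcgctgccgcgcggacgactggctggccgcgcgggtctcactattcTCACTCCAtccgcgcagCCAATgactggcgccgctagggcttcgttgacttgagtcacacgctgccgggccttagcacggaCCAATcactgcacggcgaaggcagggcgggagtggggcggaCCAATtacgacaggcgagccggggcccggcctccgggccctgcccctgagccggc
Srebf2: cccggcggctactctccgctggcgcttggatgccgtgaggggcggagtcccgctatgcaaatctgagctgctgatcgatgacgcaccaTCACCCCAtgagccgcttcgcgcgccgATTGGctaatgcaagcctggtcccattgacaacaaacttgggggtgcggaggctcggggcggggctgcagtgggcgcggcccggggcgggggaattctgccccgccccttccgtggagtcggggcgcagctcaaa
Idi1: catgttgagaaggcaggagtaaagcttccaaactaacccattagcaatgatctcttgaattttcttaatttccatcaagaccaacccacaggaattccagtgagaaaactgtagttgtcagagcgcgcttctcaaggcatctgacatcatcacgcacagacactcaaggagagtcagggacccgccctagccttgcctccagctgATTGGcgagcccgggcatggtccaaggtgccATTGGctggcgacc
Nsdhl: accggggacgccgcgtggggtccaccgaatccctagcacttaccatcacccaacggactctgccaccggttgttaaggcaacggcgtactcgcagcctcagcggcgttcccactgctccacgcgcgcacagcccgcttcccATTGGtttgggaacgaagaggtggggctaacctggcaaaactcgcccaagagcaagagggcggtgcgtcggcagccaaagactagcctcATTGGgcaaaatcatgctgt
Aacs: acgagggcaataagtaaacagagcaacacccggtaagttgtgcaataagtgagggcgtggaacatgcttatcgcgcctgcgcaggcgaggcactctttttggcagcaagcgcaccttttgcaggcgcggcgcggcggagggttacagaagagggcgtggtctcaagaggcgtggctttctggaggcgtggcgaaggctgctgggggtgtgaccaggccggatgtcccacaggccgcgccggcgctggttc

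These letters are matches to short words and do not show binding. Nor does a missing match show that a gene lacks a sterol regulatory element, since 1 word was sought in 250 bases. The core starts 137 bases before the start of Hmgcs1, 177 before that of Msmo1 and 162 before that of Srebf2, each on the gene's strand. In PairFedVehicle against Vehicle 1 of the 3 genes with the core fell, Srebf2, as did 11 of the 19 without it. Hmgcs1 and Msmo1 passed in no comparison. Of the genes printed for their small adjusted p, Idi1 and Nsdhl hold CCAAT alone and Aacs neither word. The genes without CCAAT in the window were Aacs, Acat2 and Scap.

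At the entrance to the pathway, Aacs moved most and Hmgcs1 did not pass. Aacs (Entrez 78894) encodes acetoacetyl-CoA synthetase, which turns the ketone body acetoacetate into a cytosolic precursor of sterols and fatty acids. Its values ran from 6.53 to 7.84 (median 7.10) in TZP, from 7.06 to 8.07 (median 7.48) in LAGIPRA, from 5.02 to 5.84 (median 5.30) in PairFedVehicle and from 6.36 to 7.13 (median 6.61) in Vehicle. All PairFedVehicle libraries lay below all others, and LAGIPRA overlapped Vehicle only through the highest Vehicle library, at 7.13. Aacs fell in PairFedVehicle to 0.403 times the Vehicle level (difference -1.31, SE 0.193, adjusted p = 0.000126). It was 3.48 times as high in TZP as in PairFedVehicle (difference 1.80, SE 0.193, adjusted p = 2.78e-06) and 4.41 times as high in LAGIPRA as in PairFedVehicle (difference 2.14, SE 0.193, adjusted p = 2.57e-07). Aacs also rose in LAGIPRA against Vehicle (difference 0.83, SE 0.193, adjusted p = 0.0115), a call that ended with the level of 1 read as a covariate (adjusted p = 0.16), while TZP against Vehicle did not pass (difference 0.49, SE 0.193, adjusted p = 0.0726).

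Acat2 (Entrez 110460) encodes the cytosolic thiolase that joins acetyl-CoA units to acetoacetyl-CoA. It ranged from 7.82 to 8.52 (median 8.13) in TZP, from 8.16 to 8.47 (median 8.29) in LAGIPRA, from 7.43 to 8.04 (median 7.73) in PairFedVehicle and from 7.76 to 8.21 (median 8.06) in Vehicle. Only LAGIPRA and PairFedVehicle did not overlap. It rose in LAGIPRA against PairFedVehicle (difference 0.59, SE 0.108, adjusted p = 0.000981) and in TZP against PairFedVehicle (difference 0.43, SE 0.108, adjusted p = 0.00956; adjusted p = 0.0523 when only these groups were fitted), and PairFedVehicle against Vehicle did not pass (difference -0.31, SE 0.108, adjusted p = 0.083). Hmgcs1 (Entrez 208715), which makes HMG-CoA and is a known SREBP2 target, ran from 8.05 to 9.08 (median 8.52) in TZP, from 8.60 to 8.98 (median 8.70) in LAGIPRA, from 8.51 to 9.10 (median 8.95) in PairFedVehicle and from 8.55 to 8.97 (median 8.69) in Vehicle. All groups overlapped, and the PairFedVehicle median was the highest. Its difference in PairFedVehicle against Vehicle was 0.16 with a 95% interval of -0.11 to 0.44 (adjusted p = 0.506), so that a fall of the size seen in Aacs lies outside it. The exons of Hmgcs1 share 12.1% of their bases with an antisense gene model in GENCODE M21, and whether counting used strand was not given. Models on the opposite strand also share exonic bases of Scap (13.2%), Lbr (9.24%), Idi1 (9.22%), Ggps1 (5.44%), Cyp51 (3.76%) and Lss (3.53%), and of Fdft1, given below.

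Of the 6 genes from mevalonate to the branched prenyl diphosphates, 5 fell under pair feeding and the last did not pass. Mvk (Entrez 17855), Pmvk (Entrez 68603) and Mvd (Entrez 192156) encode mevalonate kinase, phosphomevalonate kinase and the decarboxylase that yields isopentenyl diphosphate. Mvk ran from 5.30 to 5.72 (median 5.46) in TZP, from 5.32 to 5.68 (median 5.49) in LAGIPRA, from 4.50 to 5.21 (median 4.86) in PairFedVehicle and from 5.11 to 5.59 (median 5.26) in Vehicle. Its PairFedVehicle libraries overlapped those of Vehicle and lay below all TZP and LAGIPRA libraries. It fell in PairFedVehicle against Vehicle (difference -0.44, SE 0.108, adjusted p = 0.0117) and rose in TZP (difference 0.64, SE 0.108, adjusted p = 0.000467) and LAGIPRA (difference 0.63, SE 0.108, adjusted p = 0.000446) against PairFedVehicle. Pmvk ran from 8.0 to 8.80 (median 8.26) in TZP, from 8.28 to 8.59 (median 8.48) in LAGIPRA, from 7.26 to 7.69 (median 7.46) in PairFedVehicle and from 8.0 to 8.38 (median 8.11) in Vehicle. All PairFedVehicle libraries were below all others. It fell in PairFedVehicle against Vehicle (difference -0.69, SE 0.11, adjusted p = 0.000292) and rose against PairFedVehicle in TZP (difference 0.88, SE 0.11, adjusted p = 1.6e-05) and LAGIPRA (difference 0.99, SE 0.11, adjusted p = 3.92e-06).

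Mvd ran from 4.32 to 5.35 (median 4.94) in TZP, from 4.76 to 4.99 (median 4.88) in LAGIPRA, from 3.85 to 4.43 (median 4.31) in PairFedVehicle and from 4.56 to 5.20 (median 4.87) in Vehicle. PairFedVehicle lay below Vehicle and LAGIPRA without overlap and overlapped TZP. Mvd fell in PairFedVehicle against Vehicle (difference -0.64, SE 0.142, adjusted p = 0.00622) and rose in LAGIPRA against PairFedVehicle (difference 0.63, SE 0.142, adjusted p = 0.00509). It rose in TZP against PairFedVehicle too (difference 0.63, SE 0.142, adjusted p = 0.00435), a call that ended with a length slope covariate and with TZP 1 and 2 alone (adjusted p up to 0.382).

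Idi1 and Fdps were among the clearest changes. Idi1 (Entrez 319554) encodes the isomerase that makes the reactive prenyl unit dimethylallyl diphosphate; its promoter is printed above. Libraries ranged from 5.52 to 5.96 (median 5.68) in TZP, from 5.45 to 5.75 (median 5.64) in LAGIPRA, from 4.42 to 5.03 (median 4.74) in PairFedVehicle and from 5.42 to 5.82 (median 5.66) in Vehicle. The PairFedVehicle libraries stood apart below the 18 others. Idi1 in PairFedVehicle was 0.546 times the Vehicle level (difference -0.87, SE 0.0981, adjusted p = 5.65e-06), and it rose against PairFedVehicle in TZP (difference 0.95, SE 0.0981, adjusted p = 1.69e-06) and in LAGIPRA (difference 0.87, SE 0.0981, adjusted p = 4.5e-06). Against Vehicle the 95% interval of the difference was -0.13 to 0.28 in TZP and -0.20 to 0.20 in LAGIPRA.

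Fdps (Entrez 110196) encodes farnesyl diphosphate synthase, the enzyme at the branch to sterols, ubiquinone and protein prenylation. Values for it lay from 6.23 to 6.80 (median 6.35) in TZP, from 6.25 to 6.54 (median 6.35) in LAGIPRA, from 4.98 to 5.42 (median 5.22) in PairFedVehicle and from 6.19 to 6.41 (median 6.31) in Vehicle. All PairFedVehicle libraries were below all others by a wide margin. Fdps in PairFedVehicle was 0.469 times the Vehicle level (difference -1.09, SE 0.0912, adjusted p = 1.44e-07). It was 2.32 times as high in TZP as in PairFedVehicle (difference 1.22, SE 0.0912, adjusted p = 2.46e-08) and 2.22 times as high in LAGIPRA as in PairFedVehicle (difference 1.15, SE 0.0912, adjusted p = 7.5e-08). A gene model on the same strand shares 26.7% of the exonic bases of Fdps in GENCODE M21, so the value of this gene is uncertain. Ggps1, which makes geranylgeranyl diphosphate for protein prenylation, averaged 4.84 ± 0.17 in TZP, 4.94 ± 0.18 in LAGIPRA, 4.90 ± 0.15 in PairFedVehicle and 4.90 ± 0.16 in Vehicle, and passed in no comparison.

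**Figure D4:**
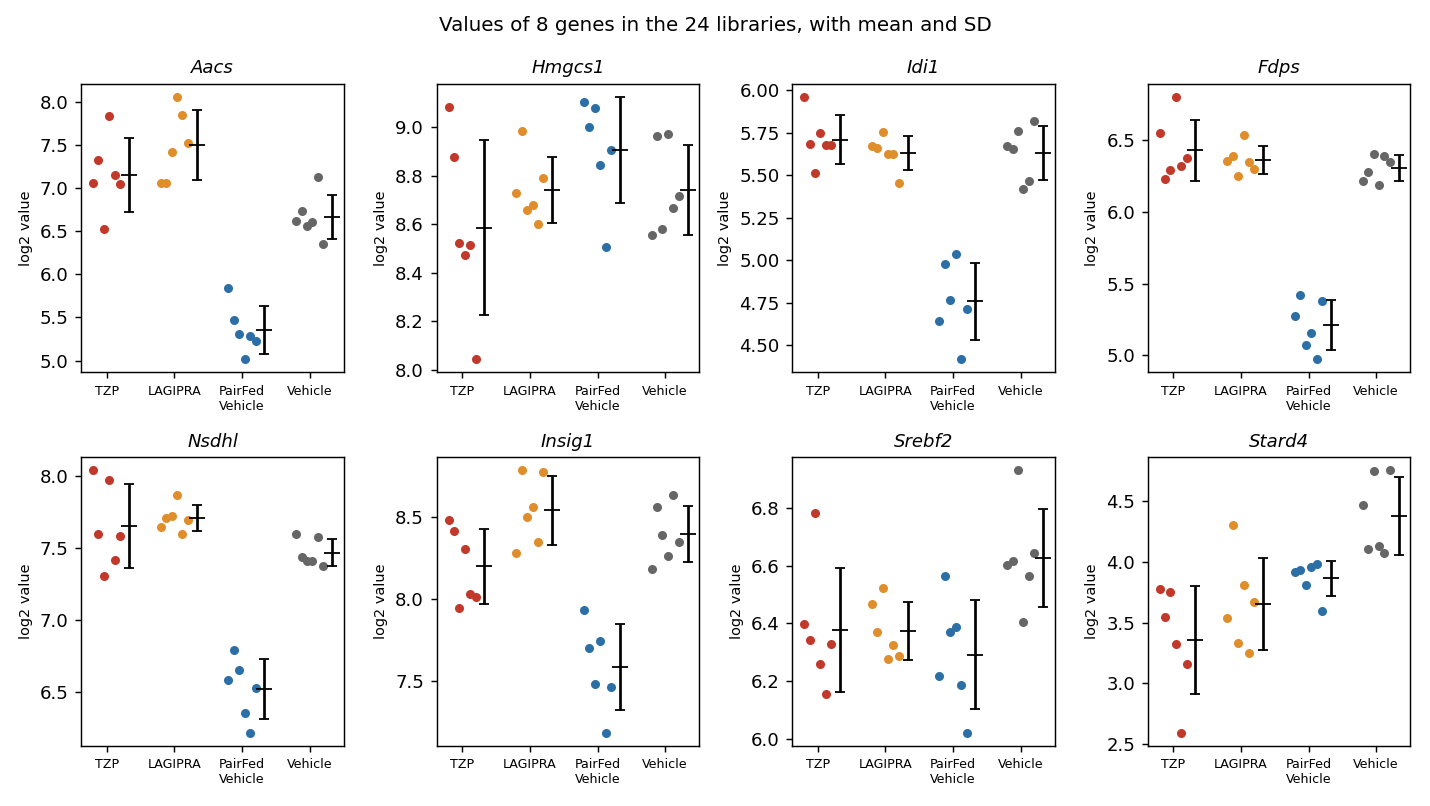
Log2 values of 8 genes in the 24 libraries (points) with the mean and SD of each group (bars beside the points); the vertical axes differ and do not start at 0. PairFedVehicle lies below the other groups for Aacs, Idi1, Fdps, Nsdhl and Insig1, overlaps them for Hmgcs1 and Srebf2, and for Stard4 the TZP group is lowest.

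From farnesyl diphosphate to lanosterol, Sqle and Lss fell under pair feeding and Fdft1 did not pass. Fdft1, squalene synthase, averaged 6.48 ± 0.35 in TZP, 6.65 ± 0.31 in LAGIPRA, 6.56 ± 0.51 in PairFedVehicle and 6.30 ± 0.20 in Vehicle. Its 5.68 to 7.25 in PairFedVehicle was the widest range of any group for this gene, and the difference from Vehicle was 0.26 with a 95% interval of -0.14 to 0.67. Exons of the protease gene Ctsb on the opposite strand share 18.3% of the Fdft1 exonic bases. Sqle (Entrez 20775), squalene epoxidase, a rate-limiting step of sterol synthesis, ran from 4.45 to 5.34 (median 4.92) in TZP, from 4.16 to 4.74 (median 4.60) in LAGIPRA, from 3.31 to 4.54 (median 3.94) in PairFedVehicle and from 4.40 to 5.45 (median 4.66) in Vehicle. The groups overlapped, with PairFedVehicle lowest by its median. Sqle fell in PairFedVehicle against Vehicle (difference -0.79, SE 0.194, adjusted p = 0.0124) and rose in TZP against PairFedVehicle (difference 0.94, SE 0.194, adjusted p = 0.00234; adjusted p up to 0.098 with a length slope covariate or with TZP 1 and 2 alone). Its call in LAGIPRA against PairFedVehicle (difference 0.61, SE 0.194, adjusted p = 0.0441) ended in 18 of 40 settings, 11 of them leaving out 1 library (Vehicle 1, 6; LAGIPRA 1, 2, 3, 4, 6; PairFedVehicle 1, 4, 5, 6); adjusted p up to 0.0912.

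Lss (Entrez 16987), lanosterol synthase, which closes the sterol rings, ran from 4.77 to 5.23 (median 4.85) in TZP, from 4.80 to 5.33 (median 5.06) in LAGIPRA, from 4.0 to 4.51 (median 4.13) in PairFedVehicle and from 4.78 to 5.11 (median 4.92) in Vehicle. PairFedVehicle lay below the 18 other libraries. Lss in PairFedVehicle was 0.589 times the Vehicle level (difference -0.76, SE 0.108, adjusted p = 7.67e-05), and it rose against PairFedVehicle in TZP (difference 0.77, SE 0.108, adjusted p = 6.8e-05) and in LAGIPRA (difference 0.89, SE 0.108, adjusted p = 1.09e-05).

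Of the 9 enzymes from lanosterol to cholesterol, 4 fell under pair feeding: Cyp51, Nsdhl, Sc5d and Dhcr7. Cyp51 (Entrez 13121), the lanosterol demethylase, ran from 5.59 to 6.23 (median 5.81) in TZP, from 5.62 to 6.02 (median 5.79) in LAGIPRA, from 4.80 to 5.65 (median 4.99) in PairFedVehicle and from 5.57 to 6.22 (median 5.89) in Vehicle. PairFedVehicle overlapped the other groups only through its highest library, at 5.65. It fell in PairFedVehicle against Vehicle (difference -0.74, SE 0.142, adjusted p = 0.0019) and rose against PairFedVehicle in TZP (difference 0.71, SE 0.142, adjusted p = 0.00176) and LAGIPRA (difference 0.69, SE 0.142, adjusted p = 0.00251). Nsdhl (Entrez 18194), a dehydrogenase that helps remove the methyl groups of lanosterol, ran from 7.31 to 8.04 (median 7.59) in TZP, from 7.59 to 7.86 (median 7.70) in LAGIPRA, from 6.22 to 6.79 (median 6.56) in PairFedVehicle and from 7.38 to 7.60 (median 7.42) in Vehicle. It separated the groups as Fdps did, with PairFedVehicle below all others. Nsdhl in PairFedVehicle was 0.519 times the Vehicle level (difference -0.95, SE 0.108, adjusted p = 6.92e-06). It was 2.19 times as high in TZP as in PairFedVehicle (difference 1.13, SE 0.108, adjusted p = 8.9e-07) and 2.27 times as high in LAGIPRA as in PairFedVehicle (difference 1.18, SE 0.108, adjusted p = 2.6e-07).

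Sc5d (Entrez 235293), a sterol desaturase, ran from 5.71 to 6.54 (median 5.89) in TZP, from 6.06 to 6.35 (median 6.26) in LAGIPRA, from 4.84 to 5.61 (median 5.43) in PairFedVehicle and from 5.63 to 6.40 (median 5.99) in Vehicle. PairFedVehicle was below all others, with its highest library, at 5.61, next to the lowest of the others, at 5.63. Sc5d fell in PairFedVehicle against Vehicle (difference -0.67, SE 0.155, adjusted p = 0.00806; adjusted p = 0.051 without the 3 libraries low in muscle markers) and rose against PairFedVehicle in TZP (difference 0.72, SE 0.155, adjusted p = 0.00321) and LAGIPRA (difference 0.91, SE 0.155, adjusted p = 0.000446). Dhcr7 (Entrez 13360), the reductase that ends one route to cholesterol, ran from 5.39 to 6.05 (median 5.54) in TZP, from 5.33 to 5.71 (median 5.47) in LAGIPRA, from 4.70 to 5.22 (median 4.82) in PairFedVehicle and from 5.25 to 5.75 (median 5.45) in Vehicle. PairFedVehicle again lay below all others. Dhcr7 fell in PairFedVehicle against Vehicle (difference -0.62, SE 0.11, adjusted p = 0.000957) and rose against PairFedVehicle in TZP (difference 0.76, SE 0.11, adjusted p = 9.84e-05) and LAGIPRA (difference 0.64, SE 0.11, adjusted p = 0.000503).

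Lbr and Tm7sf2 encode sterol reductases that act on the same step after Cyp51, and in TZP against PairFedVehicle Lbr fell and Tm7sf2 rose. Tm7sf2 (Entrez 73166) ran from 3.75 to 4.25 (median 4.11) in TZP, from 3.57 to 4.31 (median 4.06) in LAGIPRA, from 3.36 to 3.57 (median 3.49) in PairFedVehicle and from 3.65 to 3.99 (median 3.77) in Vehicle. All PairFedVehicle libraries were below all TZP and Vehicle libraries. It rose in TZP (difference 0.61, SE 0.12, adjusted p = 0.00173) and LAGIPRA (difference 0.53, SE 0.12, adjusted p = 0.0051) against PairFedVehicle, and PairFedVehicle against Vehicle did not pass (difference -0.34, SE 0.12, adjusted p = 0.0812). Its call in TZP ended with a length slope covariate and with TZP 1 and 2 alone (adjusted p up to 0.105), and Vps51 on the same strand shares 12.1% of its exonic bases. Lbr (Entrez 98386), which is also a receptor for lamin B in the inner nuclear membrane, ran from 4.80 to 5.04 (median 4.97) in TZP, from 4.95 to 5.24 (median 5.09) in LAGIPRA, from 4.93 to 5.56 (median 5.28) in PairFedVehicle and from 5.25 to 5.66 (median 5.37) in Vehicle. TZP and LAGIPRA each lay below Vehicle without overlap.

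Lbr fell in TZP against Vehicle (difference -0.48, SE 0.0935, adjusted p = 0.00171; adjusted p = 0.0922 with a length slope covariate) and against PairFedVehicle (difference -0.34, SE 0.0935, adjusted p = 0.0159; up to 0.11 in 3 settings that ended the call). Lbr also fell in LAGIPRA against Vehicle (difference -0.32, SE 0.0935, adjusted p = 0.0294), a call that ended in 7 of 41 settings, among them without Vehicle 3, Vehicle 6, LAGIPRA 4, LAGIPRA 5 or LAGIPRA 6 (adjusted p up to 0.208 over all 7). Msmo1, a methylsterol oxidase, Hsd17b7, a sterol ketone reductase, and Ebp, an isomerase, passed in no comparison. In PairFedVehicle against Vehicle Msmo1 differed by -0.36 (95% interval -0.74 to 0.03), Hsd17b7 by -0.52 (-1.01 to -0.03) and Ebp by 0.03 (-0.12 to 0.18). Hsd17b7 was also the most variable of these within TZP, at 2.44 to 4.30 against 3.74 to 4.13 in Vehicle.

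Of the 4 regulators, Insig1 and Srebf2 fell under pair feeding. Insig1 (Entrez 231070), the retention protein whose gene SREBP2 itself activates, ran from 7.94 to 8.48 (median 8.16) in TZP, from 8.28 to 8.78 (median 8.53) in LAGIPRA, from 7.18 to 7.93 (median 7.59) in PairFedVehicle and from 8.18 to 8.63 (median 8.37) in Vehicle. PairFedVehicle lay below the 18 other libraries, its highest, at 7.93, next to the lowest of the others, at 7.94. Insig1 in PairFedVehicle was 0.57 times the Vehicle level (difference -0.81, SE 0.123, adjusted p = 0.00018). It rose against PairFedVehicle in TZP (difference 0.61, SE 0.123, adjusted p = 0.00198) and in LAGIPRA (difference 0.96, SE 0.123, adjusted p = 2.07e-05). TZP was lower than LAGIPRA by -0.34 (95% interval -0.60 to -0.09), with an unadjusted p = 0.0108 that missed the threshold after adjustment (0.157).

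Srebf2 (Entrez 20788) encodes SREBP2, whose activity is set mostly by transport and cleavage of the protein, which these data do not measure. Across libraries it ran from 6.15 to 6.78 (median 6.34) in TZP, from 6.28 to 6.52 (median 6.35) in LAGIPRA, from 6.02 to 6.56 (median 6.29) in PairFedVehicle and from 6.40 to 6.93 (median 6.61) in Vehicle. All groups overlapped, and Vehicle had the highest median. Srebf2 fell in PairFedVehicle against Vehicle (difference -0.34, SE 0.101, adjusted p = 0.0394), a call that ended in 13 of 41 settings (adjusted p up to 0.103), among them without Vehicle 1, 2, 3 or 6 or PairFedVehicle 1, 3, 5 or 6 in turn. The differences from Vehicle were -0.25 in TZP (adjusted p = 0.0789) and -0.25 in LAGIPRA (adjusted p = 0.0903), and those from PairFedVehicle were 0.09 and 0.08. Scap, the escort of SREBP2, differed by 0.13 in PairFedVehicle against Vehicle (95% interval -0.04 to 0.30) and passed nowhere.

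Insig2 (Entrez 72999), the paralog of Insig1, ran from 4.33 to 4.74 (median 4.42) in TZP, from 4.25 to 4.61 (median 4.32) in LAGIPRA, from 3.82 to 4.35 (median 4.08) in PairFedVehicle and from 3.93 to 4.46 (median 4.20) in Vehicle. The groups overlapped. Insig2 rose in TZP against PairFedVehicle (difference 0.38, SE 0.11, adjusted p = 0.0195), which ended in 6 of 40 settings, among them without TZP 4 and without PairFedVehicle 4 (adjusted p up to 0.127 over the 6). In PairFedVehicle against Vehicle the 95% interval was -0.33 to 0.13.

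Stard4, like Lbr, fell in both drug groups against Vehicle. Stard4 (Entrez 170459) encodes a soluble protein that carries cholesterol between membranes and is a known SREBP2 target. Its values ran from 2.59 to 3.78 (median 3.43) in TZP, from 3.25 to 4.30 (median 3.60) in LAGIPRA, from 3.60 to 3.98 (median 3.93) in PairFedVehicle and from 4.08 to 4.75 (median 4.30) in Vehicle. TZP and PairFedVehicle each lay below all Vehicle libraries, and LAGIPRA overlapped Vehicle by 1 library. Stard4 in TZP was 0.492 times the Vehicle level (difference -1.02, SE 0.198, adjusted p = 0.00163), a call that ended with a length slope covariate and with TZP 1 and 2 alone (adjusted p up to 0.253). It fell in LAGIPRA against Vehicle (difference -0.73, SE 0.198, adjusted p = 0.0206), which ended without Vehicle 3, Vehicle 6 or LAGIPRA 5 and with the level of 1 read as a covariate (adjusted p up to 0.102). PairFedVehicle against Vehicle did not pass (difference -0.51, SE 0.198, adjusted p = 0.113), nor did TZP against PairFedVehicle (difference -0.51, SE 0.198, adjusted p = 0.0816).

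The drug groups were compared with each other gene by gene. TZP minus LAGIPRA ranged over the 26 genes from -0.42 for Hsd17b7 (95% interval -0.91 to 0.06) to 0.34 for Sqle (95% interval -0.06 to 0.74), with a median of -0.05 against 0.01 over all genes. Intervals for the enzymes that fell most under pair feeding were -0.12 to 0.25 for Fdps, -0.13 to 0.28 for Idi1, -0.28 to 0.17 for Nsdhl and -0.74 to 0.05 for Aacs. That no gene passed does not show that the drugs act alike on these genes.

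The wider sterol network was described by 5 further lists of genes; where a call of these genes ended under alternative settings, the number of such settings and the highest adjusted p follow the value. Their counts stand beside the shares of all genes tested given above, 22% in TZP, 13.7% in LAGIPRA and 8.61% in PairFedVehicle against Vehicle, and 16.4% in TZP and 11.9% in LAGIPRA against PairFedVehicle. The list of genes tied to sterol control in the endoplasmic reticulum and Golgi held 8 genes, of which 0 passed in PairFedVehicle against Vehicle (1 at an unadjusted limma p under 0.05). In TZP against PairFedVehicle 0 rose and 2 fell, Mbtps2 (difference -0.68, adjusted p = 0.00459; up to 0.29 in 2 of 40 settings) and Mbtps1 (difference -0.21, adjusted p = 0.0362; up to 0.649 in 10 of 41 settings, 6 of which left out 1 library). They encode the proteases that cut SREBP. In TZP against Vehicle Erlin2 alone fell (difference -0.28, adjusted p = 0.0483; up to 0.943 in 25 of 41 settings, 19 of which left out 1 library). In all, 0 of the 8 passed in LAGIPRA against Vehicle or against PairFedVehicle (0 and 1 at an unadjusted p under 0.05).

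Of 7 genes of the oxysterol receptor LXR and of cholesterol efflux, 3 rose in PairFedVehicle against Vehicle and 0 fell (median 0.15), where 8.61% of all genes passed (median 0.02). Of the 7 differences 6 lay above 0 and 1, that of Abca1, below (-0.32). The efflux genes Abca1 and Abcg1 did not pass there. Abca1 averaged 4.80 ± 0.24 in PairFedVehicle and 5.12 ± 0.28 in Vehicle, and Abcg1 6.47 ± 0.54 and 6.44 ± 0.42. Mylip encodes the ubiquitin ligase, also called Idol, that degrades lipoprotein receptors, and is a known LXR target. It ranged from 7.47 to 8.04 (median 7.71) in TZP, from 7.64 to 8.0 (median 7.90) in LAGIPRA, from 8.33 to 8.82 (median 8.49) in PairFedVehicle and from 7.66 to 8.02 (median 7.80) in Vehicle. PairFedVehicle lay above all 18 other libraries. Mylip rose in PairFedVehicle against Vehicle (difference 0.70, adjusted p = 4.7e-05) and fell against PairFedVehicle in TZP (difference -0.83, adjusted p = 6.24e-06) and LAGIPRA (difference -0.66, adjusted p = 8.67e-05). Nr1h3, which encodes LXR alpha, rose against Vehicle in TZP (difference 0.22, adjusted p = 0.00458, up to 0.211 in 2 of 41 settings), in LAGIPRA (difference 0.20, adjusted p = 0.0161, up to 0.133 in 1 of 41 settings) and in PairFedVehicle (difference 0.25, adjusted p = 0.00255), each without overlap. Its lowest LAGIPRA library, at 6.9204, lay next to the highest Vehicle library, at 6.9199. Srebf1, the paralog of Srebf2 that favours fatty acid synthesis, rose in LAGIPRA (difference 0.42, adjusted p = 0.00787; up to 0.115 in 1 of 41 settings) and in PairFedVehicle (difference 0.30, adjusted p = 0.036; up to 0.0971 in 9 of 41 settings, 6 of which left out 1 library) against Vehicle. Abca1, the efflux pump, fell in TZP against Vehicle (difference -1.13, adjusted p = 0.00094; up to 0.354 in 2 of 41 settings) and against PairFedVehicle (difference -0.81, adjusted p = 0.00701; up to 0.572 in 2 of 41 settings).

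Of 14 genes of uptake, transfer and esterification, 12 were tested, Soat2 and Gramd1c being too low. In PairFedVehicle against Vehicle 2 rose, the lipoprotein receptor Vldlr (difference 0.54, adjusted p = 0.00239) and the HDL receptor Scarb1 (difference 0.32, adjusted p = 0.0291; up to 0.0819 in 9 of 41 settings, 7 of which left out 1 library), and 1 fell, the lysosomal carrier Npc2 (difference -0.39, adjusted p = 0.0228; up to 0.0994 in 5 of 41 settings, 4 of which left out 1 library). Scarb1 fell against PairFedVehicle in TZP (difference -0.44, adjusted p = 0.00249) and LAGIPRA (difference -0.40, adjusted p = 0.00493). In TZP against PairFedVehicle 0 rose and 5 fell. Among them were the receptor gene Lrp1 (difference -0.78, adjusted p = 0.000975, up to 0.0754 in 1 of 41 settings) and the sterol transporter gene Gramd1b. The latter differed by -0.59 (adjusted p = 0.0231, up to 0.295 in 7 of 40 settings, 3 of which left out 1 library). In LAGIPRA against PairFedVehicle 1 rose and 3 fell, and Gramd1b fell most clearly (difference -1.01, adjusted p = 0.000492). In LAGIPRA against Vehicle 1 rose and 3 fell. Among these were Gramd1b (difference -0.72, adjusted p = 0.0134, up to 0.141 in 1 of 40 settings) and Lrp1. Lrp1 differed there by -0.55 (adjusted p = 0.0177, up to 0.137 in 3 of 41 settings, 2 of which left out 1 library). In TZP against Vehicle 1 rose, Stard5 (difference 0.34, adjusted p = 0.0111; up to 0.102 in 2 of 41 settings), and 3 fell, led by the receptor gene Lrp1 (difference -0.90, adjusted p = 0.000644; up to 0.153 in 1 of 41 settings) and the sterol sensor gene Osbp (difference -0.44, adjusted p = 0.00729; up to 0.828 in 2 of 41 settings).

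Of 12 genes of the branches that leave the pathway before squalene, 0 fell and 1 rose in PairFedVehicle against Vehicle, Rabggtb (difference 0.27, adjusted p = 0.032; up to 0.0796 in 6 of 41 settings, 5 of which left out 1 library), a prenylation enzyme. In TZP against Vehicle 5 rose and 2 fell, where 22% of all genes passed, and in LAGIPRA against Vehicle 3 rose and 0 fell, where 13.7% of all genes passed. Rabggtb was among the 5 that rose in TZP (difference 0.30, adjusted p = 0.00955, up to 0.0954 in 2 of 41 settings). Pdss1 and Pdss2 encode the subunits of the enzyme that makes the ubiquinone tail. Pdss1 rose in TZP against Vehicle (difference 0.56, adjusted p = 0.000903; up to 0.0967 in 1 of 41 settings) and against PairFedVehicle (difference 0.62, adjusted p = 0.000183). It rose in LAGIPRA against Vehicle (difference 0.47, adjusted p = 0.00682; up to 0.072 in 1 of 41 settings) and against PairFedVehicle (difference 0.53, adjusted p = 0.000752), without overlap of samples in any of the 4 comparisons. Pdss2 rose in TZP against Vehicle (difference 0.47, adjusted p = 0.0102; up to 0.222 in 3 of 41 settings) and against PairFedVehicle (difference 0.49, adjusted p = 0.00981; up to 0.103 in 2 of 41 settings). It rose in LAGIPRA against Vehicle (difference 0.48, adjusted p = 0.0168; up to 0.241 in 3 of 41 settings, 2 of which left out 1 library) and against PairFedVehicle (difference 0.50, adjusted p = 0.0101).

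Of 5 oxysterol enzymes 3 were tested. Ch25h makes an oxysterol that blocks SREBP2 processing and is an interferon-inducible gene of macrophages. Libraries ranged from 5.26 to 6.30 (median 6.04) in TZP, from 5.19 to 6.39 (median 6.13) in LAGIPRA, from 5.15 to 5.90 (median 5.49) in PairFedVehicle and from 6.68 to 7.68 (median 7.24) in Vehicle. All 3 groups lay below all Vehicle libraries. Ch25h fell in TZP (difference -1.30, adjusted p = 0.000911), in LAGIPRA (difference -1.17, adjusted p = 0.00514; up to 0.066 in 1 of 41 settings) and in PairFedVehicle (difference -1.66, adjusted p = 3.79e-05) against Vehicle. Cyp27a1, a mitochondrial sterol hydroxylase, rose in TZP (difference 0.33, adjusted p = 0.0358; up to 0.387 in 10 of 41 settings, 5 of which left out 1 library) and LAGIPRA (difference 0.35, adjusted p = 0.0384; up to 0.335 in 11 of 41 settings, 7 of which left out 1 library) against Vehicle. Beside these values, macrophage markers averaged 7.72 to 8.81 in TZP, 7.51 to 8.55 in LAGIPRA, 7.81 to 9.28 in PairFedVehicle and 8.07 to 9.30 in Vehicle libraries, with 1, 4 and 0 of 6 lower than Vehicle and 0 higher; their part in these differences was not tested.

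Markers of cell types were set beside the pair-fed fall of the enzymes. In PairFedVehicle against Vehicle 2 of 8 brown adipocyte markers rose, Ucp1 (difference 0.45, adjusted p = 0.0208) and Cidea (difference 0.40, adjusted p = 0.0288), and 0 fell. Of 4 white adipocyte markers Lep, the leptin gene, fell (difference -1.59, adjusted p = 3.13e-05), and of 6 endothelial markers 2 rose and 1 fell. White adipocyte markers averaged 7.90 to 8.34 in TZP, 7.99 to 8.68 in LAGIPRA, 7.51 to 8.42 in PairFedVehicle and 8.16 to 8.80 in Vehicle libraries, which overlap. In LAGIPRA against Vehicle 3 of 8 brown adipocyte markers rose, 4 of 6 macrophage markers fell, 1 of 6 endothelial markers rose and 1 fell, and no marker of the other lists passed. In LAGIPRA against PairFedVehicle Adrb3 of the brown and Lep of the white adipocyte markers rose, and no marker of the other lists passed. The part of these cells in the differences was not tested. None of 8 skeletal muscle, 6 macrophage, 5 Schwann cell, 3 erythroid and 3 fibroblast markers passed in PairFedVehicle against Vehicle, nor did Cd79a, the 1 of 4 lymphocyte markers that was tested (unadjusted p under 0.05 for 0, 2, 0, 0, 2 and 0 of them). Without the 3 libraries low in muscle markers 12 of the 26 sterol genes fell in PairFedVehicle against Vehicle. The share of all genes that passed in that setting is not given here.

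In TZP, other lists moved. Against Vehicle 4 of 6 endothelial, 3 of 3 erythroid, 1 of 6 macrophage, 1 of 3 fibroblast and 1 of 4 white adipocyte markers fell, and against PairFedVehicle 4 of 6 endothelial markers fell. Of the 8 brown adipocyte markers, Ucp1 (difference 0.50, adjusted p = 0.00579) and Cidea (difference 0.45, adjusted p = 0.00789) rose in TZP against Vehicle. Prdm16, a regulator of brown fat identity, fell in TZP against Vehicle (difference -0.81, adjusted p = 0.0351) and against PairFedVehicle (difference -0.79, adjusted p = 0.0487), and the other 7 did not pass against PairFedVehicle. Of the 4 white adipocyte markers, Lep rose (difference 0.90, adjusted p = 0.00557) and Nnat fell (difference -0.66, adjusted p = 0.0432) in TZP against PairFedVehicle. Endothelial markers averaged 7.55 to 8.01 in TZP, 8.16 to 8.30 in LAGIPRA, 8.17 to 8.34 in PairFedVehicle and 8.10 to 8.37 in Vehicle libraries, without overlap of TZP with any other group. The part of all these markers' cells in the TZP differences was not tested. With TZP 1 and 2 alone, 12 of the 26 sterol genes passed in TZP against PairFedVehicle, all 12 among the 17 that passed with all 6. The share of all genes given above is that of the fit with all 6 and does not apply to this setting.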

How the data were processed

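Per the labels' protocols, TRIzol and an RNeasy lipid kit served for extraction, and polyA RNA was selected. The submitters' processing notes name cutadapt 1.9.1 and GSNAP without their roles; the sources used here do not give genome build, annotation, read counter or strandedness. The deposited values were taken as log2 values that the authors had rolled up to genes and quantile normalized; scale and normalization were inferred from the values, which ran from -0.50 to 22.35 with an offset near 1, so that differences of weakly expressed genes are understated. Reads per library are unknown.

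Of 23017 genes the 25% lowest in mean were dropped. The 17263 others were fitted with limma 3.58.1 (R 4.3.3) on the 24 samples together, a mean for each group, with trended empirical Bayes moderation, and p-values were adjusted by Benjamini-Hochberg over all of them (threshold 0.05). The procedure was also run on simulated data with independent noise for each gene and effects added in TZP alone. Those data did not carry the length slopes of the libraries or correlation between genes. Libraries of a group correlated across genes at r = 0.911 to 0.977, and none were identical. Transcript lengths (GENCODE mouse M21) were known for 15407 tested genes (89.2%). Promoters came from RefSeq (GRCm38.p6), and figures were drawn with matplotlib 3.10.9.

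The members and the lists were chosen with earlier results of these data known. All 26 members are named, and those that passed in any comparison, with Hmgcs1, have their ranges printed. Of each of the 5 further lists up to 3 genes that passed are named for a comparison. They are not always those with the smallest adjusted p, and other genes that passed are not named. The marker lists were brown and white adipocyte, skeletal muscle, endothelial, macrophage, Schwann cell, erythroid, fibroblast and lymphocyte. Alternatives were other filters, thresholds, offsets, normalizations, variance models and covariates, subsets of libraries, and each library left out in turn.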

Additional observations from a re-analysis of the deposited data

Results flagged for a closer look

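Among the 104 sets of 6 values (26 genes in 4 groups), 3 held a library far from its group by Dixon's test at its 95% critical value of 0.625 for 6 samples; chance gives about 1 in 20. Mvd was 3.85 in PairFedVehicle 5, against 4.22 to 4.43 in the other 5 libraries of that group. Sqle was 4.16 in LAGIPRA 5, against 4.57 to 4.74 in the others. Lss was 4.51 in PairFedVehicle 1, against 4.0 to 4.18 in the others, still below all libraries of the other groups. PairFedVehicle 5 is also 1 of the 3 libraries with skeletal muscle markers close to absent (mean 0.622); the part of this in the value of Mvd was not tested.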

How the results depend on the processing

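With 24 settings that left out 1 library and 17 others, 3 comparisons kept most calls: PairFedVehicle against Vehicle had 12 to 16 of the 26 genes called (14 as reported, 12 of them under every setting), TZP against PairFedVehicle 12 to 19 (17, 11 under every setting) and LAGIPRA against PairFedVehicle 13 to 15 (15, 14 under every setting). TZP against LAGIPRA gave 0 throughout. The 2 calls in TZP against Vehicle became 1 with the lowest 50% of genes left out, 0 with a length slope covariate, 1 with TZP 1 and 2 alone, 6 at a threshold of 0.10, 4 without the 3 libraries low in muscle markers (chosen after seeing the data) and 2 to 4 with 1 library left out. The 3 calls in LAGIPRA against Vehicle became 6 when only these groups were fitted or at 0.10, 5 with array weights or with TZP 1 and 2 alone, 0 with the level of 1 read as a covariate and 1 to 4 with 1 library left out. Among genes outside the 26, calls in TZP against Vehicle turned sign with a length slope covariate for Erlin2 (0.0607), Npc1 (0.137), Osbp (0.0443) and Icmt (0.0822), and with TZP 1 and 2 alone for Erlin2 (0.0153), Npc1 (0.0148) and Icmt (0.108). The cause of these changes was not tested. With replicate number as a block the counts were 3, 3, 14, 17, 0 and 14 in the order TZP, LAGIPRA and PairFedVehicle against Vehicle, TZP against PairFedVehicle, TZP against LAGIPRA and LAGIPRA against PairFedVehicle. Deviations of the 36 same-numbered pairs correlated at -0.60 to 0.38 (median -0.00), and 1 of 24 libraries correlated best with its own number. These values gave no sign that the numbers pair the samples, but a weak shared effect could be missed. An offset of 8 shrank the median difference in PairFedVehicle against Vehicle to -0.36. With unknown depth, a miss of the threshold does not show that a gene did not differ.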
